A study of Rattus norvegicus with 8 samples.

Results

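The genes of the rat major histocompatibility complex (MHC) and of the machinery that loads their products with peptide were followed across PEG-fused peripheral nerve allografts (PNAs), negative control PNAs and unoperated sciatic nerves. Members were the genes whose symbol starts with RT1-, the name of the rat MHC, and 17 genes listed by name, kept if they had at least 10 normalized read counts in at least 2 libraries. Of 48 such genes 46 passed, out of 16478 genes tested: 19 of 21 class I genes, 10 of 10 class II genes and 17 of 17 genes of processing and assembly. Only RT1-M4 and RT1-M5, both class I, fell under the limit. Of the 46, 41 reached 10 counts in all 8 libraries, and RT1-DMb reached it only in NC PNAs. RT1-Ha and RT1-DMa reached it only in grafts, RT1-Ha only in PEG 1 and the NC libraries.

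The 8 libraries came from outbred female Sprague Dawley rats (Envigo) aged 3-6 months after birth. In the PEG group (n = 3), a donor sciatic nerve segment from an unmatched rat was joined to the host nerve with the PEG-fusion protocol, in which the cut ends are washed with calcium-free hypotonic saline and methylene blue, sutured, treated with polyethylene glycol (PEG) and washed with saline that contains calcium. The NC group (n = 3) had the same graft, washes and sutures without PEG. Neither donor nor host was immunosuppressed, both kinds of graft were excised at 14 days postoperatively, and the Unop group (n = 2) was sciatic nerve without surgery. Each library was made from 1 animal and held between 32472925 and 39959620 reads on genes. A graft holds cells of donor and host, which these bulk libraries do not separate, and reads of near-identical RT1 genes can be split or lost in counting, so values of single RT1 genes are uncertain. Tap2 and Psme1 had very few counts beside their partners Tap1 and Psme2, and whether the counting missed their reads was not tested.

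MHC class I molecules consist of a polymorphic heavy chain and beta-2-microglobulin and show peptides from inside the cell to CD8 T cells. The peptides are cut by the proteasome, carried into the endoplasmic reticulum by the TAP transporter and fitted to the heavy chain by tapasin and other chaperones. Class II molecules are pairs of alpha and beta chains that show peptides from endosomes to CD4 T cells, with Cd74 (the invariant chain) as their escort. NLRC5 and CIITA are the known coactivators of the class I and class II genes respectively, and interferon gamma is a well-known inducer of both. Donor MHC molecules are the main targets of the T cells that reject a graft.

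The class II genes share a conserved promoter arrangement, the X and Y boxes, which is the platform on which CIITA is recruited, and class I promoters carry a kappa B site and an interferon-stimulated response element (ISRE). The stretches printed here were chosen because they hold these letters just before the annotated starts. They come from RefSeq on build GRCr8, whereas the reads were mapped to Rnor_6.0, and windows of 300 bases (250 before to 50 after the start) were found for 39 of the 46 members. In the class II genes capitals mark TGATTGG, which holds a reverse CCAAT, and in RT1-Ba also the letters TGACGTCA upstream of it, which match TGACG on both strands.
RT1-Da (chr20:4515329-4515378, plus strand): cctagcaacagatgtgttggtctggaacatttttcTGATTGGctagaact
RT1-Ba (chr20:4576977-4577026, plus strand): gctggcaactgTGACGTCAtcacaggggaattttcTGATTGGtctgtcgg
RT1-Db1 (chr20:4560230-4560279, minus strand): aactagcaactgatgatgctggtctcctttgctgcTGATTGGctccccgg
RT1-Bb (chr20:4604167-4604216, minus strand): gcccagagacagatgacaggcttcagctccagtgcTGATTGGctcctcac
RT1-Db2 (chr20:4541700-4541749, minus strand): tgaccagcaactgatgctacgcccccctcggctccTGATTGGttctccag
RT1-DOa (chr20:4758518-4758567, minus strand): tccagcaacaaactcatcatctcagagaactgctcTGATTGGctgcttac
RT1-DOb (chr20:4627594-4627643, minus strand): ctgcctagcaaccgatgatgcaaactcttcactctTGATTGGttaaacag
RT1-Ha (chr20:4772241-4772290, minus strand): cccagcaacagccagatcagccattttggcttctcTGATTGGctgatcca
RT1-DMa (chr20:4712387-4712436, minus strand): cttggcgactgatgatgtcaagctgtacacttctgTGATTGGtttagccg

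TGATTGG stood in the windows of 9 of 9 class II genes, 9 of 17 class I genes and 2 of 13 processing genes, beside 7.06% of all 33469 promoter windows searched on both strands. The shorter CCAAT was in the same 9 class II windows, in 12 of the class I windows and in 37.5% of all windows. The core TGACG was in 1 class II window, that of RT1-Ba, in 5 class I and 3 processing windows and in 21.2% of all windows. TGATTGG and a second form of the ISRE, GAANNGAAA, were added after the sequences had been read. A match is a description of letters and not a measured binding site.

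The kappa B motif GGGNNTTCC was in 5 class I, 2 class II (RT1-Ba and RT1-DOa) and 1 processing window and in 5.92% of all windows. In the 5 class I genes it was followed by the ISRE form GAANNGAAA on the opposite strand, and the capitals mark both.
RT1-A1 (chr20:4907077-4907118, plus strand): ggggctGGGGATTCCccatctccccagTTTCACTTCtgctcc
RT1-A2 (chr20:4872691-4872731, plus strand): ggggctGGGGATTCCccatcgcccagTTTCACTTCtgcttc
RT1-CE4 (chr20:3509315-3509356, minus strand): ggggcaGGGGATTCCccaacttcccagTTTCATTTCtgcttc
RT1-CE10 (chr20:3385139-3385179, minus strand): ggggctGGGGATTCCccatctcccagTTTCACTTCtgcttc
RT1-CE3 (chr20:3525307-3525348, minus strand): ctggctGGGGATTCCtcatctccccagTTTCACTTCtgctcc

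Among the processing genes, 7 of 13 windows held the ISRE form GAAANNGAA, which was in 9.71% of all windows. They were those of B2m, Psme2, Tap1, Psmb10, Tapbp, Psmb8 and Tap2, and the match nearest the start is shown in capitals for the 6 whose match ends before it.
B2m (chr3:129549168-129549200, plus strand): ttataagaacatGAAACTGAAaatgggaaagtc
Psme2 (chr15:33052784-33052816, minus strand): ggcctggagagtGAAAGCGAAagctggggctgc
Psmb10 (chr19:50743293-50743321, minus strand): taagtggggggtGAAAGCGAAagtaggaa
Tap1 (chr20:4668643-4668675, minus strand): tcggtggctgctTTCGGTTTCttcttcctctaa
Tap2 (chr20:4652317-4652349, minus strand): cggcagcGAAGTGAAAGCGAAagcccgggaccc
Tapbp (chr20:4967878-4967903, minus strand): GAAAATGAAAGTGAAAGGAAAcagac
In Tap2 and Tapbp the capitals also cover overlapping matches to GAANNGAAA, and in Tapbp they cover 2 matches to GAAANNGAA. The form GAANNGAAA was in 7 class I, no class II and 4 processing windows and in 8.54% of all windows, and the gamma-activated sequence TTCNNNGAA was in 1 class I and 1 processing window and in 8.87% of all.

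**Figure D1:**
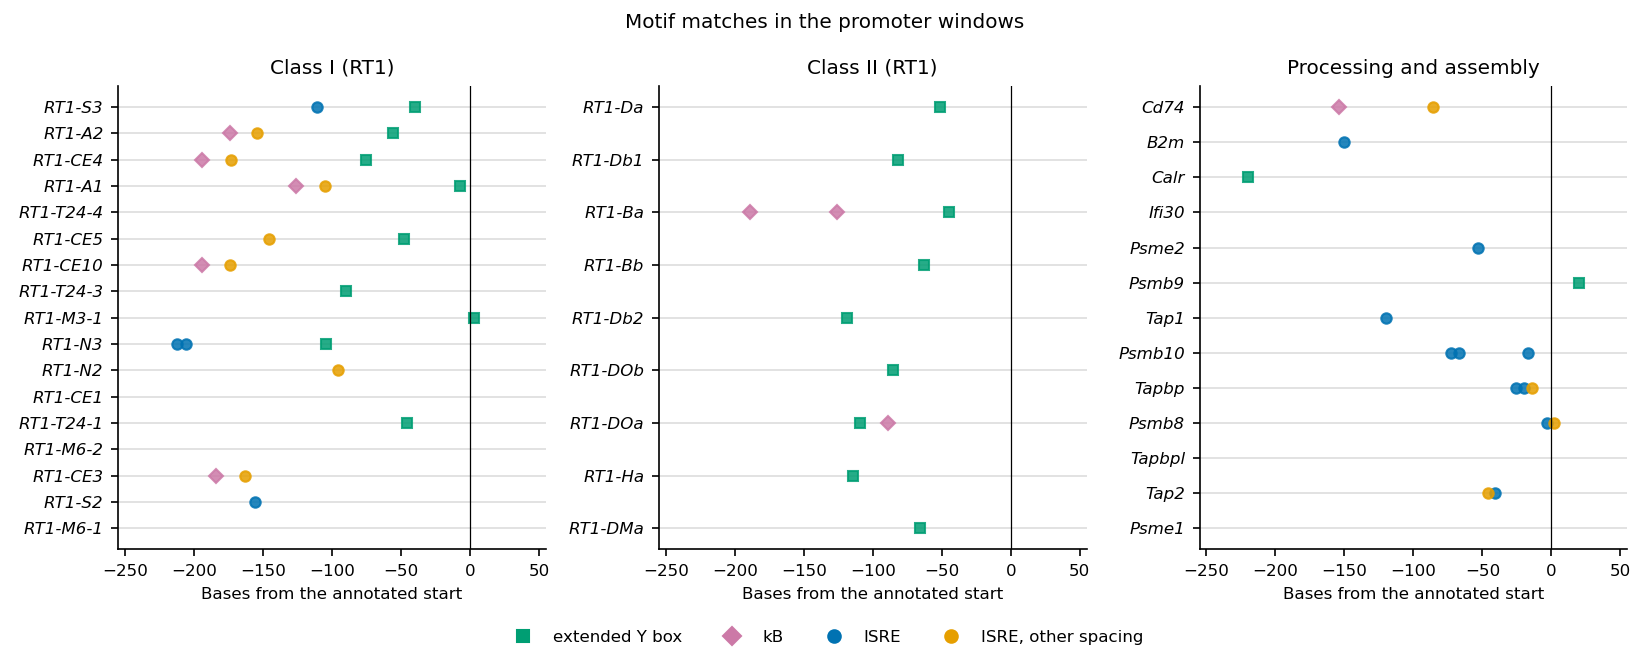
Position of motif matches in the promoter windows of the 39 members with a RefSeq promoter, as bases from the annotated start (x axis, start at 0) for class I, class II and processing genes. Each of the 9 class II genes has a match to the extended Y box (TGATTGG) before its start, and kappa B marks stand just upstream of ISRE marks in 5 class I genes.

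Both classes of MHC gene and most of the processing genes were downregulated in PEG-fused relative to NC PNAs, and none was upregulated. Of the 46 members 35 were called lower, where called means an adjusted p under 0.05 from limma on log2(normalized count + 1) over the 16478 tested genes. Of all tested genes 13.9% were called lower and 15% higher in this comparison. The 35 were 14 of 19 class I genes with a median log2 fold change of -1.80 over the 19, 7 of 10 class II genes with a median of -2.35 over the 10, and 14 of 17 processing genes with a median of -1.78 over the 17. The median over all tested genes was 0.00. In 37 members every PEG library lay below every NC library, as it did in 23.3% of all tested genes. RT1-DMb, which entered through its NC counts alone, is 1 of the 37, and without it they were 36. RT1-Ha, 1 of the 35 and of the 37, also needed its NC counts to pass the filter.

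In NC PNAs compared to Unop nerves 42 members were called higher and none lower, whereas 32.2% of all tested genes were called higher and 32.3% lower. The median log2 fold change was 2.84 for class I, 4.32 for class II and 2.67 for processing genes. The 42 include RT1-DMb, which entered through its NC counts alone and whose call (adjusted p = 0.0452) was lost by DESeq2 (0.162), by edgeR (0.12) and when any library but Unop 1 was left out (adjusted p between 0.0617 and 0.327). Its log2 fold change was 2.14, and 0.60 without Unop 2. Without this gene 41 members were called and the class II median was 4.47. RT1-Ha and RT1-DMa, also among the 42, reached 10 counts in no Unop library. They too passed the filter only through groups in which they were higher. In PEG-fused PNAs compared to Unop nerves 27 members were called higher and none lower, whereas 29.1% of all tested genes were called higher and 28.6% lower. These were 7 of 19 class I genes with a median of 0.72, 8 of 10 class II genes with a median of 1.90 and 12 of 17 processing genes with a median of 0.97. The 8 again include RT1-Ha and RT1-DMa, which passed the filter only through grafts, where they were higher. The call of RT1-DMa (adjusted p = 0.0139) was lost by DESeq2 (0.0547) and with a pseudocount of 8 (0.0533). The 3 comparisons share libraries, so their counts are not independent of each other. The medians include members with very few reads, whose change this log2 scale understates.

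**Figure D2:**
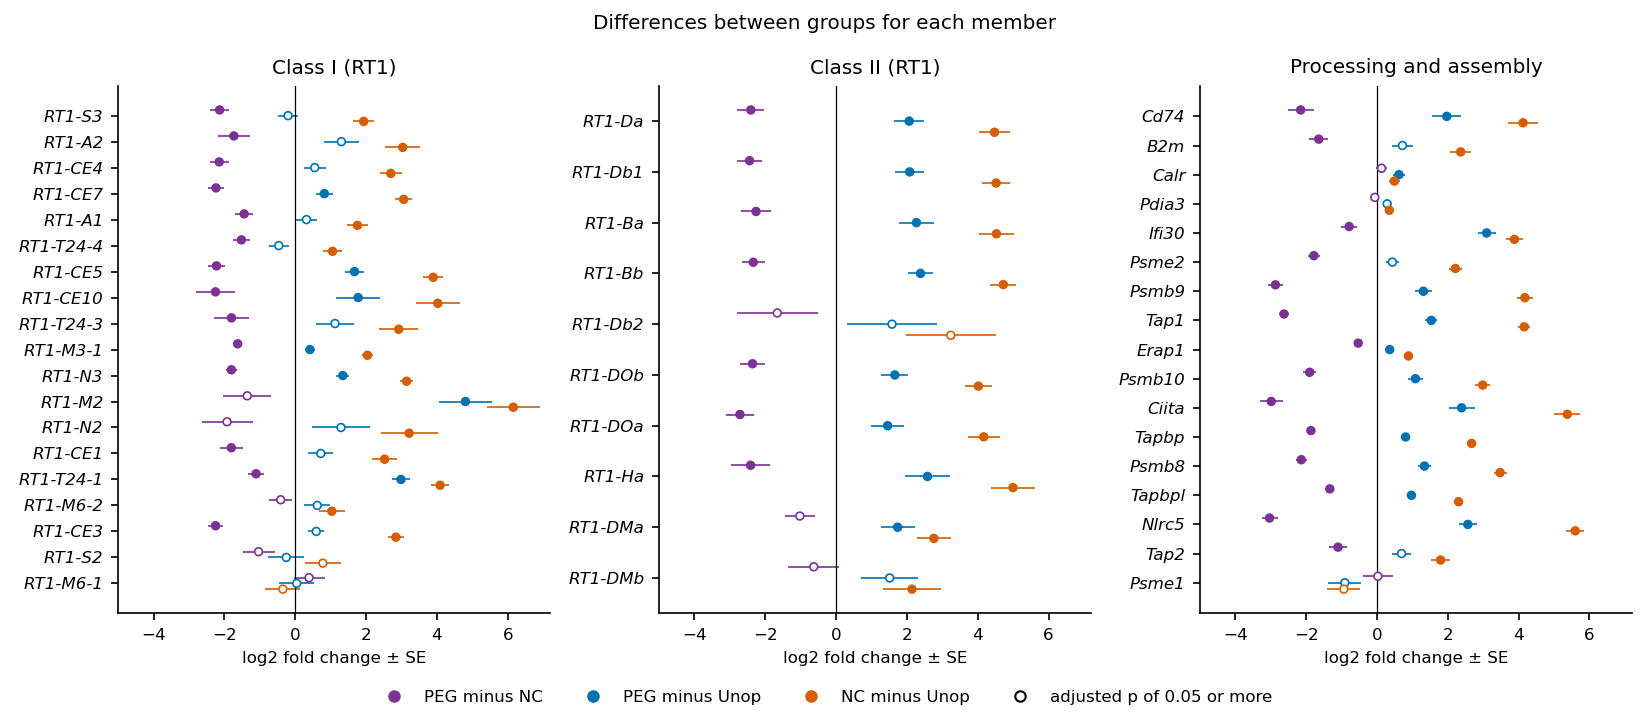
log2 fold change on the log2(normalized count + 1) scale with its standard error (x axis) for each of the 46 members (rows) in the 3 comparisons (colors), with open points for adjusted p of 0.05 or more. Most PEG minus NC points lie left of 0 and most NC minus Unop points lie far right of it, with PEG minus Unop medians of 0.72 for class I and 1.90 for class II.

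In a bulk library, fewer cells of a type and less RNA per cell cannot be told apart. Lists of cell type markers were therefore read beside these genes. Over all tested genes 13.9% were called lower and 15% higher in PEG-fused than in NC PNAs. Of 8 T cell markers 8 were called lower in PEG-fused than in NC PNAs (summed normalized counts of 7921 to 12013 in PEG, 27472 to 46036 in NC and 1750 to 2085 in Unop libraries), with none at 0. Cd4 alone had 5667 to 6332 counts in PEG, 7776 to 11602 in NC and 1578 to 1751 in Unop libraries. It made up most of the PEG and Unop sums. Its fall (log2 fold change -0.73) was smaller than those of Cd3e (-3.53), Cd3d (-3.84) and Cd3g (-3.37). Of 8 macrophage markers 6 were called lower, with sums of 88563 to 106620 in PEG, 133009 to 157371 in NC and 18921 to 29293 in Unop libraries. Cd68 and Mrc1 were not called, and Cd68 was higher in every PEG library (20030 to 22451) than in any NC library (14060 to 18968). Of 6 dendritic cell markers 3 were called lower (sums of 3290 to 6068 in PEG, 7055 to 12185 in NC and 937 to 1108 in Unop libraries), and 4 of 4 B cell and 3 of 3 NK cell markers were called lower. B cell sums were low throughout, at most 57.5 in PEG, 465 in NC and 27.9 in Unop libraries. Pax5, 1 of the 4 B cell markers, passed the count filter through NC 1 and NC 2 alone (15.2 and 38.7 counts). It had 1.87 to 2.78 counts in PEG libraries, so its lower value there was partly fixed by the filter. Ms4a1 also needed its NC counts to pass the filter. Schwann cell markers, which define the labelled tissue, were present in each library, with sums of 57289 to 63419 in PEG, 17847 to 63088 in NC and 2031830 to 2412500 in Unop libraries. Of 5 of them 2 were called higher in PEG-fused than in NC PNAs, and so were 2 of 3 fibroblast markers, with sums of 194954 to 299727 in PEG, 115131 to 156383 in NC and 219386 to 298122 in Unop libraries. Among 3 endothelial markers 1, Kdr, was called lower and none higher. Endothelial sums were 7118 to 9641 in PEG, 6740 to 8787 in NC and 11539 to 11782 in Unop libraries. The part of these cell types in the MHC difference was not tested.

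The class II genes encode the alpha and beta chains of the 2 rat class II molecules, RT1-D and RT1-B, and of the accessory proteins RT1-DM and RT1-DO, which edit the peptides that the classical molecules carry. RT1-Da, the RT1-D alpha chain, had 81368, 30288 and 29489 counts in PEG 1, PEG 2 and PEG 3, 200870, 255700 and 211154 in NC 1, NC 2 and NC 3, and 12384 and 8023 in Unop 1 and Unop 2. The 3 groups did not overlap, and PEG 1 lay well above the other PEG libraries. Its log2 fold change was -2.41 in PEG-fused against NC PNAs (SE 0.38, adjusted p = 0.00315), and it was 2.07 above Unop nerves in PEG-fused PNAs (SE 0.43, adjusted p = 0.00337).

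RT1-Db1, the RT1-D beta chain, had 36280, 14105 and 14493 counts in PEG, 80359, 135540 and 109169 in NC and 5172 and 4134 in Unop libraries, a log2 fold change of -2.44 in PEG-fused against NC PNAs (SE 0.36, adjusted p = 0.00245). RT1-Ba, the RT1-B alpha chain, had 35978, 13215 and 13813 counts in PEG, 125137, 83920 and 68647 in NC and 5528 and 2734 in Unop libraries, a log2 fold change of -2.26 (SE 0.43, adjusted p = 0.00678). RT1-Bb, the RT1-B beta chain, had 22346, 10345 and 9660 counts in PEG, 75682, 64767 and 58752 in NC and 3246 and 1931 in Unop libraries, a log2 fold change of -2.34 (SE 0.33, adjusted p = 0.002). Each of these chains kept the order NC over PEG over Unop without overlap. In PEG-fused PNAs their means were 4.61 to 5.45 times those of Unop nerves, and in NC PNAs 21.8 to 25.6 times. Without PEG 1 the former range was 2.93 to 3.86 times.

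The DO chains followed the same order. RT1-DOa had 527, 144 and 220 counts in PEG, 1976, 1622 and 1489 in NC and 104 and 82.5 in Unop libraries, the largest fall among class II genes, with a log2 fold change of -2.71 in PEG-fused against NC PNAs (SE 0.41, adjusted p = 0.00254). RT1-DOb had 548, 266 and 291 counts in PEG, 1109, 2395 and 2165 in NC and 110.5 and 108.8 in Unop libraries, a log2 fold change of -2.36 (SE 0.34, adjusted p = 0.00229). RT1-DO is known as an inhibitor of RT1-DM.

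RT1-Ha, RT1-DMa and RT1-DMb rested on few reads. RT1-Ha had 17.6, 6.54 and 7.5 counts in PEG and 36.6 to 72.1 in NC libraries, and was called lower (log2 fold change -2.41, SE 0.56, adjusted p = 0.0145), a call that was lost without PEG 2 (adjusted p = 0.0575) or PEG 3 (adjusted p = 0.0517). In Unop nerves it had 2 reads in Unop 1 and none in Unop 2. RT1-DMa had 7.48 to 12.2 counts in PEG and 12.5 to 34.7 in NC libraries (log2 fold change -1.02, SE 0.43, adjusted p = 0.11), and RT1-DMb had 5.63 to 9.35 in PEG and 9.65 to 16.1 in NC libraries (-0.63, SE 0.72, adjusted p = 0.55). Neither passed the test, and RT1-DMa passed without NC 1 (adjusted p = 0.0449). The annotation held a second entry for an M alpha chain and for an M beta chain under other symbols, so the reads of DM can be divided between rows.

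RT1-Db2, a second D beta gene, split the libraries of 1 group. It had 138 counts in NC 1 against 3127 and 2612 in NC 2 and NC 3, with 823, 222 and 195 in PEG and 71.9 and 166 in Unop libraries, and NC 1 lay below all PEG libraries. Its log2 fold change of -1.66 in PEG-fused against NC PNAs did not pass (SE 1.14, adjusted p = 0.308). Without NC 1 it was called lower (adjusted p = 0.0107). RT1-Db2 counts were 0.171% of RT1-Db1 counts in NC 1 and 2.31% and 2.39% in the other NC libraries, and between 1.35% and 2.27% in PEG libraries. RT1-Ba moved the other way in the same library, at 62.3% of RT1-Da counts in NC 1 against 32.8% and 32.5% in NC 2 and NC 3.

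**Figure D3:**
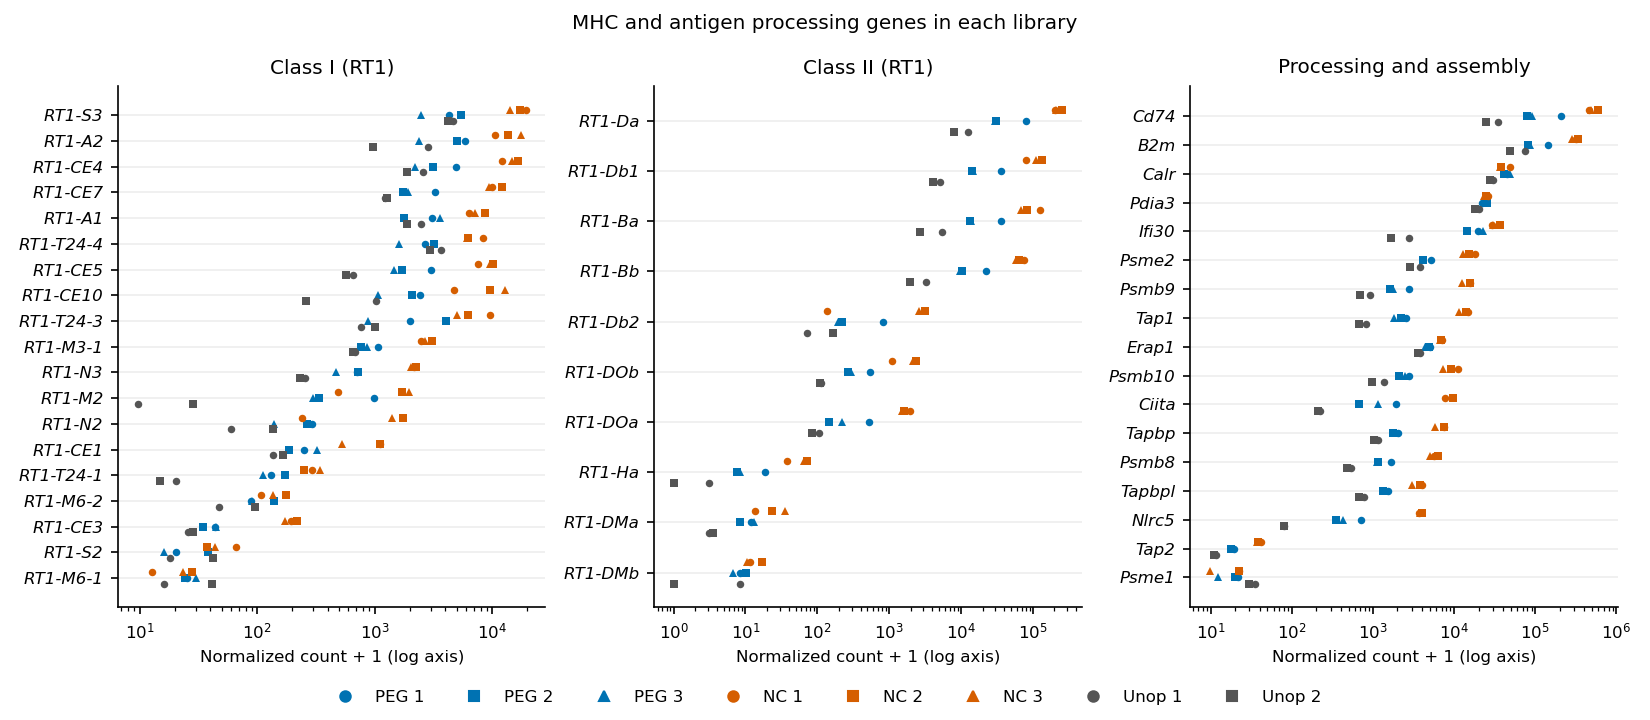
Normalized counts plus 1 (x axis, log scale) of each of the 46 members in each library, with PEG in blue, NC in orange and Unop in gray and a marker shape per replicate. NC points stand to the right of PEG points for most genes, and NC 1 stands apart from the other NC libraries for RT1-Db2, RT1-N2 and RT1-M2.

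Of the 19 class I genes 14 were called lower in PEG-fused than in NC PNAs. All 10 class I genes with the highest mean count were called lower, with log2 fold changes between -2.25 and -1.44. The mean was taken over all 8 libraries, NC included, so this ranking drew on the values compared. RT1-A1 and RT1-A2 are annotated in the RT1-A region, which encodes the classical class I heavy chains of the rat. RT1-A2 had 5884, 4997 and 2381 counts in PEG, 10713, 13588 and 17582 in NC and 2845 and 978 in Unop libraries, a log2 fold change of -1.73 (SE 0.45, adjusted p = 0.022). RT1-A1 had 3087, 1773 and 3631 counts in PEG, 6363, 8770 and 7128 in NC and 2495 and 1894 in Unop libraries, a log2 fold change of -1.44 (SE 0.26, adjusted p = 0.0052). For both genes the PEG libraries lay under all NC libraries and overlapped the Unop nerves. The call of RT1-A2 was lost without PEG 3 (adjusted p = 0.0648) or without NC 3 (adjusted p = 0.0689).

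The CE genes lie in the RT1-C/E region, which is known for many related class I genes, most of them nonclassical. RT1-CE4 had 4917, 3117 and 2219 counts in PEG, 12079, 16580 and 14710 in NC and 2578 and 1895 in Unop libraries, a log2 fold change of -2.15 (SE 0.27, adjusted p = 0.00141). RT1-CE7 had 3274, 1744 and 1915 counts in PEG, 9991, 12200 and 9398 in NC and 1227 and 1281 in Unop libraries, a log2 fold change of -2.24 (SE 0.22, adjusted p = 0.000631). RT1-CE5 had 3003, 1712 and 1451 counts in PEG, 7611, 10252 and 9713 in NC and 659 and 568 in Unop libraries, a log2 fold change of -2.22 (SE 0.25, adjusted p = 0.000979). In all 3 the PEG and NC libraries were apart by more than the spread within either group, and RT1-CE5 and RT1-CE7 were also called higher in PEG than in Unop nerves. That call was lost for RT1-CE7 without Unop 1 or Unop 2 (adjusted p = 0.0967 and 0.0773). RT1-CE10 varied more, with 2454, 2100 and 1073 counts in PEG, 4731, 9680 and 13018 in NC and 1021 and 260 in Unop libraries, a log2 fold change of -2.25 (SE 0.56, adjusted p = 0.0196). Its call was lost without PEG 2, PEG 3 or NC 3 (adjusted p between 0.0504 and 0.0671).

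RT1-S3, a nonclassical class I gene, had 4271, 5467 and 2472 counts in PEG, 19509, 17463 and 14327 in NC and 4686 and 4214 in Unop libraries. PEG-fused PNAs were below NC PNAs (log2 fold change -2.13, SE 0.26, adjusted p = 0.00128) and overlapped Unop nerves (-0.20, SE 0.29, adjusted p = 0.581). RT1-T24-4 had a like pattern, with 2669, 3223 and 1608 counts in PEG, 8422, 6289 and 6134 in NC and 3674 and 2982 in Unop libraries (PEG against NC -1.52, SE 0.25, adjusted p = 0.00357). RT1-T24-3 had 1988, 4049 and 886 counts in PEG and 9555, 6237 and 5048 in NC libraries (-1.80, SE 0.49, adjusted p = 0.027), and its call was lost without PEG 1, NC 1 or NC 2 (adjusted p between 0.0521 and 0.0696) and with robust variances (0.0566). RT1-M3-1, of the distal M region, had 1068, 769 and 857 counts in PEG, 2498, 3095 and 2677 in NC and 675 and 659 in Unop libraries (-1.62, SE 0.13, adjusted p = 0.000443).

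Of the other 9 class I genes 4 were called lower in PEG-fused than in NC PNAs, with log2 fold changes over the 9 between -2.25 and 0.39. The 5 that were not called were RT1-M2, RT1-N2, RT1-M6-2, RT1-S2 and RT1-M6-1. RT1-M2 and RT1-N2 were split within the NC group. RT1-N2 had 239 counts in NC 1 against 1755 and 1402 in NC 2 and NC 3, and 290, 267 and 138 in PEG libraries (log2 fold change -1.92, SE 0.72, adjusted p = 0.0794). RT1-M2 had 483 counts in NC 1 against 1728 and 1963 in NC 2 and NC 3, and 980, 337 and 296 in PEG libraries (-1.35, SE 0.68, adjusted p = 0.167). RT1-M2 was at 8.59 and 27.5 in Unop nerves, which placed it among the class I genes called higher in PEG than in Unop nerves (4.81, SE 0.75, adjusted p = 0.000803).

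The class I genes called higher in PEG than in Unop nerves, 7 of 19, were RT1-CE7, RT1-CE5, RT1-CE10, RT1-M3-1, RT1-N3, RT1-M2 and RT1-T24-1. In this comparison 29.1% of all tested genes were called higher, so the class I count was not far from that share. The difference was 1.67 for RT1-CE5 (SE 0.28, adjusted p = 0.00113) and 2.99 for RT1-T24-1 (SE 0.26, adjusted p = 3.24e-05). RT1-M3-1, at 0.42 (SE 0.15, adjusted p = 0.0428), lost its call when any of PEG 1, PEG 3, NC 3, Unop 1 or Unop 2 was left out (adjusted p between 0.0616 and 0.141), in a fit of only these groups (0.0544) and without the count filter (0.0525). RT1-CE10 (1.78, SE 0.63, adjusted p = 0.0387) lost it without PEG 1, PEG 2 or Unop 2 (adjusted p between 0.0938 and 0.328), by edgeR (0.0677) and with robust variances (0.0782). The number of class I genes called higher than in Unop nerves ranged from 5 to 9 when single libraries were left out, and was 5 without PEG 1.

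Summed over a class, the counts were highest in the NC libraries for both classes. Class I sums were 35146, 30865 and 20007 in PEG, 96150, 111712 and 106377 in NC and 21211 and 16517 in Unop libraries. PEG 3 lay within the Unop range. Class II sums were 177907, 68609 and 68188 in PEG, 485330, 547183 and 454097 in NC and 26628 and 17183 in Unop libraries, without overlap between groups. Mean class I counts in PEG-fused PNAs were 1.52 times those of Unop nerves, and mean class II counts 4.79 times. NC PNAs had 3.65 times the class I counts and 4.72 times the class II counts of PEG-fused PNAs, and 5.55 and 22.6 times those of Unop nerves. Without PEG 1, mean PEG counts were 1.35 times the Unop counts for class I and 3.12 times for class II, and NC counts were 4.12 and 7.24 times the PEG counts.

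The ratio of class II to class I counts was 5.06, 2.22 and 3.41 in PEG, 5.05, 4.90 and 4.27 in NC and 1.26 and 1.04 in Unop libraries. It is not scaled by gene length and is compared between libraries only. Both kinds of graft lay above the Unop nerves, and PEG 1 lay with the NC libraries while PEG 2 and PEG 3 lay between NC and Unop. All members together held 1.11% to 2.11% of the normalized counts of a PEG library, 4.39% to 5.09% of an NC library and 0.409% to 0.524% of a Unop library. RT1-Da held a like share of class II counts in the 3 groups, 44.4% ± 1.26 (SD, n = 3) in PEG, 44.9% ± 3.02 (SD, n = 3) in NC and 46.6% ± 0.134 (SD, n = 2) in Unop libraries.

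**Figure D4:**
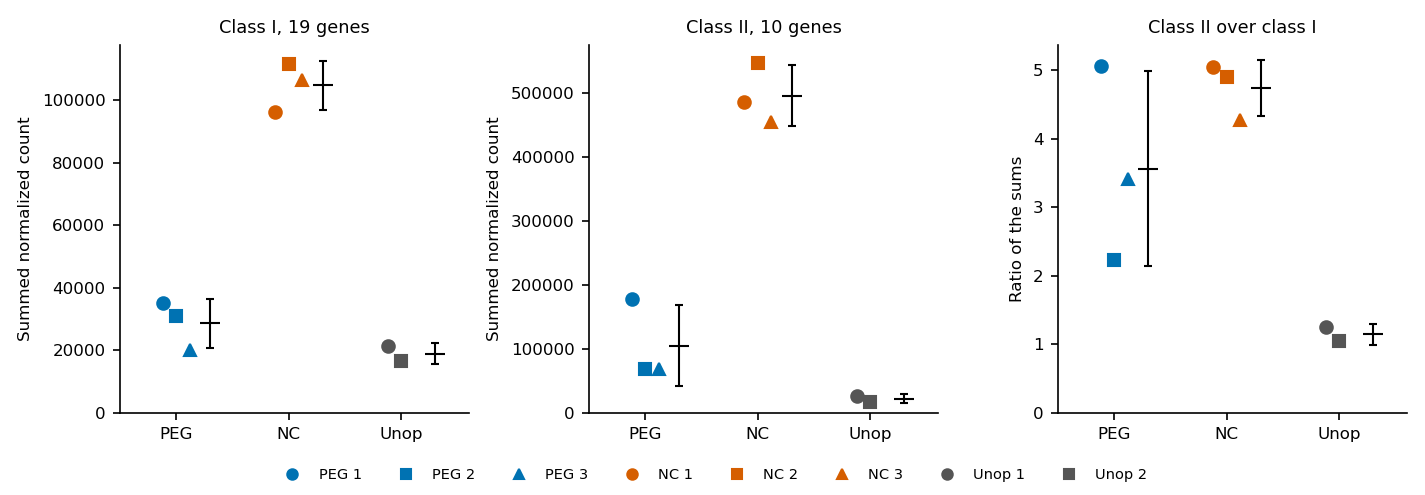
Summed normalized counts of the 19 class I genes (left) and the 10 class II genes (center) in each library, and their ratio (right), by group (x axis), with black bars for mean ± SD. NC libraries have the highest sums of both classes, and PEG 1 stands above PEG 2 and PEG 3 in class II counts (177907 against 68609 and 68188).

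PEG 1 was the highest PEG library for 8 of 10 class II genes, 14 of 17 processing genes and 8 of 19 class I genes, and for 30.1% of all tested genes. Its class II counts were a median of 2.52 times the mean of PEG 2 and PEG 3. Of the immune marker sums, those of NK cells (723 against 197 and 392), T cells (12013 against 7921 and 10811), macrophages (106620 against 88563 and 101447) and B cells (57.5 against 23.4 and 50.7) were highest in PEG 1. That of dendritic cells was not (4261 against 3290 and 6068). PEG 1 and NC 1 also had the highest skeletal muscle fiber sums of their groups, 16504 and 682149. Without PEG 1 the members called lower in PEG-fused than in NC PNAs were 33, without NC 1 they were 38, and over all 8 libraries left out in turn they were between 32 and 38. The same range was 21 to 29 for PEG-fused PNAs against Unop nerves and 38 to 41 for NC PNAs against Unop nerves.

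Beta-2-microglobulin (B2m), the light chain of class I molecules, had 141733, 80842 and 86681 counts in PEG, 314043, 335977 and 286945 in NC and 74627 and 49152 in Unop libraries. It fell by 1.64 on the log2 scale in PEG-fused against NC PNAs (SE 0.27, adjusted p = 0.00362), and its difference from Unop nerves was 0.72 (SE 0.30, adjusted p = 0.0697), which passed by DESeq2 (0.0114) and with robust variances (0.0456). The PEG libraries lay between the other groups without overlap. B2m counts were 3.66 ± 0.915 (SD, n = 3) times class I counts in PEG, 2.99 ± 0.285 (SD, n = 3) in NC and 3.25 ± 0.384 (SD, n = 2) in Unop libraries, again without scaling for length.

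Nlrc5, the class I coactivator, had 704, 352 and 420 counts in PEG, 3685, 4041 and 3839 in NC and 78.3 and 78.8 in Unop libraries. Its log2 fold change of -3.03 in PEG-fused against NC PNAs was the largest fall of any member (SE 0.22, adjusted p = 0.000343). Ciita, the class II coactivator, had 1930, 667 and 1142 counts in PEG, 7621, 9754 and 9809 in NC and 222 and 210 in Unop libraries, a log2 fold change of -2.98 (SE 0.33, adjusted p = 0.000897). For both coactivators the groups did not overlap, and PEG-fused PNAs were above Unop nerves, by 2.57 for Nlrc5 (SE 0.25, adjusted p = 5.95e-05) and 2.39 for Ciita (SE 0.36, adjusted p = 0.000681).

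Tap1, a subunit of the peptide transporter, had 2534, 2207 and 1800 counts in PEG, 14720, 14097 and 11375 in NC and 820 and 677 in Unop libraries, a log2 fold change of -2.62 (SE 0.15, adjusted p = 0.000309). Tap2, the other subunit, had only 16.8 to 18.5 counts in PEG, 36.7 to 41.1 in NC and 10 to 10.7 in Unop libraries, and was called lower as well (-1.10, SE 0.25, adjusted p = 0.0128). Tapbp, or tapasin, which bridges TAP and class I, had 2044, 1775 and 1899 counts in PEG, 7521, 7573 and 5853 in NC and 1159 and 1019 in Unop libraries (-1.87, SE 0.12, adjusted p = 0.000338). Its relative Tapbpl, a peptide editor, had 1314 to 1517 counts in PEG, 3023 to 4001 in NC and 677 to 779 in Unop libraries (-1.33, SE 0.12, adjusted p = 0.000589). In none of these 4 genes did a PEG library reach an NC library.

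The proteasome exchanges its catalytic subunits for Psmb8, Psmb9 and Psmb10 when it becomes an immunoproteasome. Psmb9 had 2766, 1635 and 1772 counts in PEG, 15905, 15587 and 12523 in NC and 929 and 699 in Unop libraries, a log2 fold change of -2.87 (SE 0.21, adjusted p = 0.000343). Psmb8 had 1660, 1137 and 1116 counts in PEG, 5694, 6284 and 5011 in NC and 533 and 479 in Unop libraries (-2.14, SE 0.16, adjusted p = 0.000381). Psmb10 had 2783, 2079 and 2475 counts in PEG, 11088, 9206 and 7269 in NC and 1358 and 962 in Unop libraries (-1.90, SE 0.19, adjusted p = 0.000644). All 3 were also called higher in PEG than in Unop nerves, by 1.34 for Psmb8, 1.31 for Psmb9 and 1.09 for Psmb10.

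Each inducible subunit replaces one constitutive subunit, Psmb5 for Psmb8, Psmb6 for Psmb9 and Psmb7 for Psmb10. None of these 3 constitutive genes was called between PEG-fused and NC PNAs (log2 fold changes of 0.02, -0.02 and -0.25). The ratio of Psmb8 to Psmb5 counts was 0.756, 0.511 and 0.509 in PEG, 2.28, 3.03 and 2.54 in NC and 0.172 and 0.191 in Unop libraries. The ratio of Psmb9 to Psmb6 was 0.913, 0.584 and 0.655 in PEG, 4.91, 5.47 and 4.85 in NC and 0.250 and 0.241 in Unop libraries. The ratio of Psmb10 to Psmb7 was 0.865, 0.671 and 0.814 in PEG, 2.66, 2.56 and 2.12 in NC and 0.264 and 0.211 in Unop libraries. In each pair the ratio was highest in NC and lowest in Unop libraries, without overlap of the groups. Of 15 genes of the constitutive proteasome and its assembly 5 were called lower in PEG-fused than in NC PNAs and none higher (Psmb2, Psmb3, Psma4, Psma5 and Psma7). The share called lower over all tested genes was 13.9%. The 15 had a median log2 fold change of -0.35 and none beyond -0.63.

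**Figure D5:**
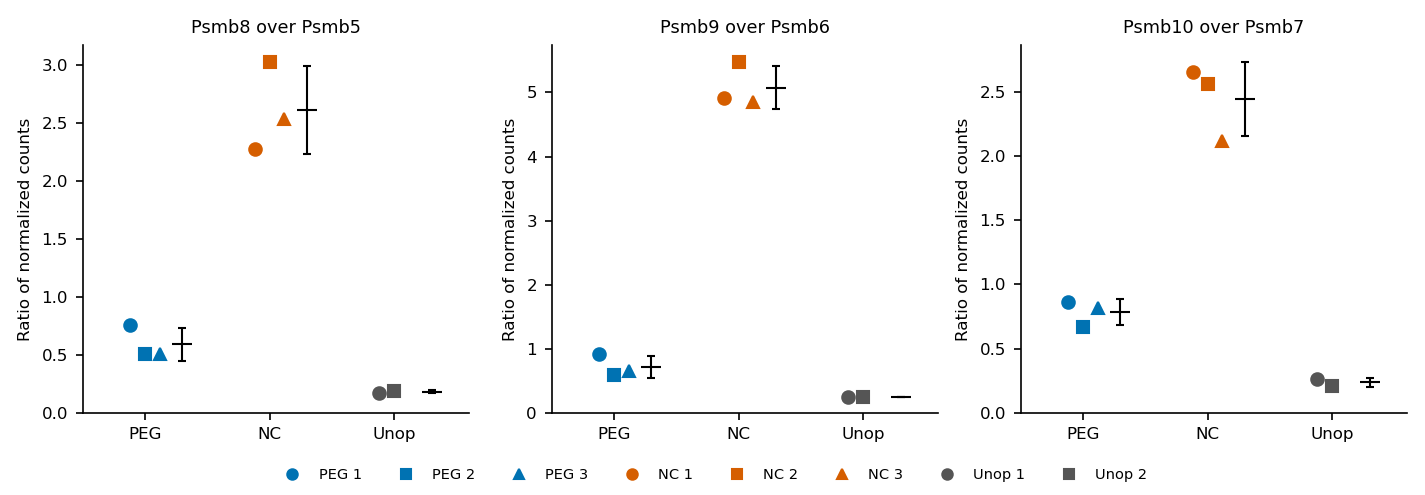
Ratio of the normalized count of each inducible proteasome subunit to that of the constitutive subunit it replaces (y axis, not scaled by gene length) in each library, by group (x axis), with black bars for mean ± SD. For Psmb9 over Psmb6 the NC libraries lie between 4.85 and 5.47, the PEG libraries between 0.584 and 0.913 and the Unop libraries at 0.241 and 0.250.

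The other members of the class I route differed in size of change. Psme2, the beta subunit of the interferon-inducible proteasome activator PA28, had 5168, 4093 and 4089 counts in PEG, 18208, 15158 and 12706 in NC and 3758 and 2842 in Unop libraries, a log2 fold change of -1.78 (SE 0.17, adjusted p = 0.000589). Its partner Psme1 had 11.3 to 20.4 counts in PEG, 8.68 to 21.5 in NC and 28.8 to 34.3 in Unop libraries, with overlap of PEG and NC (0.03, SE 0.42, adjusted p = 0.972), a depth at which little can be said of a change. Erap1, the peptidase that trims peptides in the endoplasmic reticulum, changed less, with 4368 to 5000 counts in PEG, 6715 to 6989 in NC and 3542 to 3841 in Unop libraries, and was called lower (-0.53, SE 0.08, adjusted p = 0.00267).

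The general chaperones of the loading complex did not pass the test between the grafts. Calr, calreticulin, had 44986, 40760 and 48978 counts in PEG and 48690, 37947 and 37147 in NC libraries (0.13, SE 0.14, adjusted p = 0.534). Pdia3, a disulfide isomerase of the same complex, had 22258 to 25245 counts in PEG and 23027 to 26267 in NC libraries (-0.06, SE 0.10, adjusted p = 0.697). For both the PEG and NC libraries overlapped. Of 3 further chaperone and peptidase genes tested, Canx, Hspa5 and Tpp2, none was called between PEG-fused and NC PNAs. In that comparison 13.9% of all tested genes were called lower and 15% higher.

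Cd74, the invariant chain of class II, had 209954, 78782 and 90105 counts in PEG, 454170, 595766 and 485173 in NC and 34754 and 24419 in Unop libraries. It was lower in PEG-fused than in NC PNAs (-2.15, SE 0.37, adjusted p = 0.00447) and higher than in Unop nerves (1.97, SE 0.41, adjusted p = 0.00369). Cd74 counts were 1.22 ± 0.0922 (SD, n = 3) times class II counts in PEG, 1.03 ± 0.0831 (SD, n = 3) in NC and 1.36 ± 0.082 (SD, n = 2) in Unop libraries, a smaller range than the 22.6-fold range of the class II counts between Unop and NC libraries.

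Ifi30, the lysosomal thiol reductase GILT, also serves class II by unfolding antigens. It had 19762, 14234 and 22395 counts in PEG, 29245, 37113 and 29735 in NC and 2774 and 1681 in Unop libraries. Its difference between PEG-fused and NC PNAs was -0.79 (SE 0.23, adjusted p = 0.0329), whereas it was 3.10 above Unop nerves in PEG-fused PNAs (SE 0.25, adjusted p = 2.2e-05). The former call was lost without PEG 1, PEG 2, NC 2 or NC 3 (adjusted p between 0.0618 and 0.11).

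The endosomal proteases cut the invariant chain and the antigens that class II presents. Of 6 genes of class II proteolysis 3 were called higher in PEG-fused than in NC PNAs, and 1 was called lower. Over all tested genes these shares were 15% and 13.9%. Ctsd had 189489, 186136 and 231298 counts in PEG, 70656, 76971 and 88094 in NC and 27996 and 24096 in Unop libraries (1.36, SE 0.17, adjusted p = 0.00124). Ctsl (1.26, SE 0.18, adjusted p = 0.0021) and Ctsb (0.76, SE 0.19, adjusted p = 0.0185) were also higher, and the intramembrane protease Sppl2a was lower (-0.53, SE 0.08, adjusted p = 0.00215). Ctss, known for the last step of invariant chain cleavage, had 23737 to 32389 counts in PEG and 34849 to 41530 in NC libraries and did not pass (-0.44, SE 0.23, adjusted p = 0.187), and neither did Lgmn (0.25, SE 0.16, adjusted p = 0.283).

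Of 17 regulators tested 11 were called lower in PEG-fused than in NC PNAs and none higher, where 13.9% of all tested genes were called lower. Ifng, the interferon gamma gene, had 12, 1.87 and 3.75 counts in PEG, 134.9, 192.6 and 240.2 in NC and 1.07 and 0 in Unop libraries (-5.04, SE 0.59, adjusted p = 0.00107). This gene, 1 of the 11, needed its NC counts to pass the filter, so its lower value in PEG libraries was partly fixed by it. Irf1, a transcription factor induced by interferon gamma, had 2941, 2015 and 2189 counts in PEG, 20631, 18723 and 16665 in NC and 1378 and 1099 in Unop libraries (-2.98, SE 0.16, adjusted p = 0.00019). Socs1, a feedback inhibitor of the same pathway, was lower by a similar measure (-3.50, SE 0.27, adjusted p = 0.000387). Of the subunits that bind the X and Y boxes, Rfx5 (-1.07, SE 0.09, adjusted p = 0.00048) and Nfyc (-0.33, SE 0.08, adjusted p = 0.0148) were called lower, and Rfxank, Nfya, Nfyb and Creb1 were not called. Rfxap had at most 3.22 counts and was not tested.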

How the data were processed

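Sequencing libraries were prepared from poly-A RNA of 8 nerves. The deposited values are normalized counts, a linear signal per Ensembl gene: the authors aligned reads to Rnor_6.0 with TopHat2, used HTSeq-count to count reads per gene, and scaled each library with its DESeq2 size factor. Fold changes and p-values deposited by the authors were not used.

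Groups were compared with limma 3.58.1 (trend, R 4.3.3) on log2(normalized count + 1) in a group-means model of all 8 libraries, with 1 spread shared by the 3 groups and Benjamini-Hochberg adjustment over the 16478 genes with at least 10 counts in at least 2 libraries. All values (100%) were whole reads within 0.001 after removal of 1 constant per library, and edgeR 4.0.16 and DESeq2 1.42.0 were run on those reads as alternatives. Other alternatives were TMM rescaling, a pseudocount of 8, no filter or one of 50, a fit of only the groups compared, robust variances, a replicate block, a log2 fold change threshold of 1 and each library left out. The fits were tested on simulated data.

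Every processing and class II gene and the 10 class I genes with the highest mean count were named, and others where a count of 5 or fewer or an exception turned on them. Members and lists were chosen with earlier results of these data known. Class II was defined by symbols starting with RT1-B, RT1-D or RT1-H. Protein identity between RT1 genes was not analysed here. A few listed genes were not analysed here, and Lnpep, Rfxap and Azgp1 fell under the filter.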

Additional observations from a re-analysis of the deposited data

How the results depend on the processing

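The number of members called in each comparison and group stayed within 1.5 times the reported value under every alternative run. Members called were between 33 and 36 in PEG-fused against NC PNAs, 21 and 29 in PEG-fused PNAs against Unop nerves and 38 and 42 in NC PNAs against Unop nerves under the settings other than leaving out a library. Medians of the groups moved by more than the SD over the libraries of the first-named group only in NC PNAs against Unop nerves. There, a pseudocount of 8 gave 2.69 for class I and 4.00 for class II, a filter of 50 counts gave 4.50 for class II and 2.98 for processing genes, and with each library left out the medians were 2.67 to 2.85 for class I and 4.01 to 4.51 for class II. The filter removed members with few reads, and the cause of the others was not tested. This SD was wide in the PEG comparisons, 0.77 for class II against Unop and 0.72 against NC, beside 0.13 for class I in NC against Unop. Within it, class II medians ranged from 1.56 to 2.31 in PEG against Unop and from -2.73 to -2.14 in PEG against NC. The PEG medians were therefore not shown to be steadier.

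Of 1875 results of named genes under the alternatives 1786 kept their direction and call, 63 lost and 18 gained a call, and 8 changed sign, all 8 in genes that were not called. Psme1 in PEG-fused against NC PNAs was -0.019 by edgeR and -0.035 by DESeq2, and between -0.38 and 0.27 with single libraries left out. RT1-S3 in PEG-fused PNAs against Unop nerves was 0.021 with a replicate block and between -0.45 and 0.12 with single libraries left out, and RT1-DMb between -0.032 and 3.06. Same-numbered PEG and NC libraries deviated together with correlations of 0.108, 0.109 and -0.0502, so the numbers were not taken to pair the samples, and a fit with a replicate block called 34 members in PEG-fused against NC PNAs, 28 in PEG-fused PNAs against Unop nerves and 40 in NC PNAs against Unop nerves. The 2 Unop nerves limit every comparison with them, and 7 members never reached 100 counts.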

Other observations

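Of 5 MHC-like genes outside the RT1 complex that were tested, 3 were called higher in PEG-fused than in NC PNAs and none lower, where 15% of all tested genes were called higher. Mr1, which presents vitamin B metabolites to mucosal-associated invariant T cells, had 758, 906 and 737 counts in PEG, 475, 474 and 450 in NC and 619 and 655 in Unop libraries, and the PEG libraries lay above all others (log2 fold change 0.77 against NC, SE 0.11, adjusted p = 0.00197 by limma). Fcgrt, the neonatal Fc receptor, had 16895, 15018 and 12623 counts in PEG and 9268, 8736 and 10985 in NC libraries (0.62, SE 0.15, adjusted p = 0.0191 by limma). Procr, the endothelial protein C receptor, had 634 to 752 counts in PEG, 467 to 517 in NC and 1139 to 1470 in Unop libraries (0.51, SE 0.12, adjusted p = 0.0172 by limma). Cd1d1 and Hfe were not called.

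A further 8 rows are described as MHC genes in the annotation without an RT1 symbol. Of these, 7 were tested and 5 were called lower in PEG-fused than in NC PNAs, where 13.9% of all tested genes were called lower. LOC108348140 and LOC108348072, both among the 5, needed their NC counts to pass the filter. Their lower values in PEG libraries were thus partly fixed by it. LOC100364500, described as class I, had 484, 352 and 248 counts in PEG, 1242, 1572 and 1202 in NC and 197 and 191 in Unop libraries (-1.93, SE 0.23, adjusted p = 0.00116 by limma). LOC108348139, an M beta chain, had 55.3 to 59.3 counts in PEG, 83.1 to 115 in NC and 5.37 to 7.50 in Unop libraries (-0.74, SE 0.24, adjusted p = 0.0476 by limma), more counts than RT1-DMb in each of the 6 graft libraries.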
